A study of Homo sapiens with 6 samples.

Results

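The SR splicing factors examined here were the 10 genes *SRSF1*, *SRSF2*, *SRSF3*, *SRSF4*, *SRSF5*, *SRSF6*, *SRSF7*, *SRSF9*, *SRSF10* and *SRSF11*. They were read by gene symbol from a table of 20381 genes, and all 10 were among the 11958 genes with enough reads to test. RNA-seq was performed on HCCLM3, a human hepatocellular carcinoma cell line with little *PON1* of its own, with 3 libraries of cells overexpressing *PON1* (PON1-OE) and 3 of the negative control (NC). The PON1-OE cells had been infected with a lentivirus carrying the *PON1* coding sequence and selected with puromycin, and the design text describes the control as an empty lentiviral vector. Both groups were therefore virus-treated cells of 1 line, the promoter of the vector is not given in the sources used here, and it is not stated whether the replicates came from separate infections or cultures. The labels call the overexpression stable, whereas the design text counts the time of lysis from a transfection, and serum content also differs between the sources. All p-values measure the spread between these libraries, which may be technical.

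SR proteins bind exonic enhancers in pre-mRNA through RNA recognition motifs, and their tails of arginine-serine repeats recruit the spliceosome to nearby splice sites. Kinases of the SRPK and CLK families phosphorylate these tails and thereby control the location and activity of the proteins. SR genes are also known for limiting their own expression, since high levels of an SR protein favor transcripts with a poison exon that are degraded by nonsense-mediated decay (NMD). In liver, *SRSF3* is known to be needed for hepatocyte maturation and metabolism, and *SRSF1* is a known proto-oncogene.

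Totals of 15706672 to 17948383 estimated counts per library lay behind the values. *PON1* had 0, 2 and 3 counts in NC and 155, 181 and 167 in PON1-OE, in keeping with the labels. Of the hepatocyte-lineage markers, the keratins *KRT8* and *KRT18* and the transcription factors *HNF4A* and *FOXA2* were present, while *TTR* and *SERPINA1* reached at most 2 and 1 counts and *ALB* 4 to 13 counts. Among further secreted liver proteins, *APOH* had 360 to 499 counts, *TF* 281 to 396 and *APOB* 60 to 106, so the secreted proteins of the list were present in part. Of 16 markers of other cell types, *PTPRC*, *CD3E* and *KRT5* were at 0 in every library. In all, 7 of the 16 did not pass 3 counts in any library. The summed level of the 16 was 237 to 256 CPM (counts scaled to a common library size by TMM normalization) in NC and 255 to 281 CPM in PON1-OE, and its part in the results below was not tested. Most of this sum was *CD68*, a lysosomal protein gene used as a macrophage marker, at 215 CPM in NC and 235 in PON1-OE (log2FC 0.13, unadjusted p 0.00943, adjusted p 0.252, groups overlapping). The endothelial marker *PECAM1* had 13.1 and 15.1 CPM without overlap (adjusted p 0.452), and *KRT7* (8.31 and 8.69 CPM), *DCN* (4.27 and 5.10 CPM) and *KRT19* (3.97 and 3.95 CPM) were also detected.

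None of the 10 SR genes changed under *PON1* overexpression at an adjusted p under 0.05 (quasi-likelihood test of edgeR, Benjamini-Hochberg adjustment over all genes tested), where 0.677% of all genes tested were called. Their adjusted p ranged from 0.371 to 0.985. At an unadjusted p under 0.05, 2 of the 10 were lower in PON1-OE, *SRSF4* and *SRSF11*, and 0 were higher, while 5.17% of all genes were lower and 5.91% higher by the same rule. DESeq2 also called 0 at an adjusted p under 0.05 and placed 0 under the unadjusted limit, with the adjusted p of *SRSF5* not available. Fitted log2 fold changes (log2FC, PON1-OE minus NC) ran from −0.16 to 0.080, with 5 above and 5 below 0 and a median of 0.023, against −0.0025 over all genes tested. The 95% confidence intervals of all 10 lay between −0.29 and 0.30 on the log2 scale. The measurements thus bounded each difference rather than showing equality. In bulk RNA, fewer cells expressing a gene and less RNA per cell cannot be told apart.

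**Figure D1:**
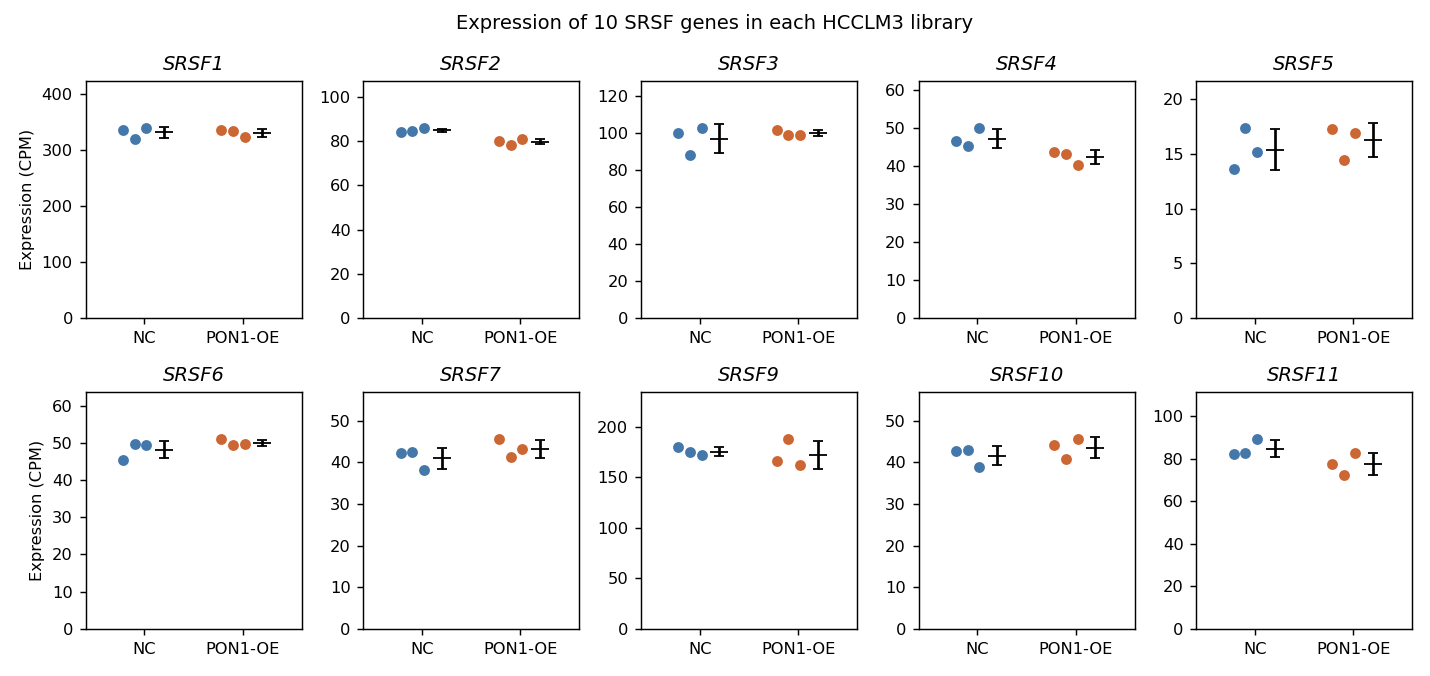
CPM after TMM normalization of each of the 10 SR genes in the 6 libraries (y axes start at 0), with points for single libraries and the group mean with its SD (n = 3). The NC and PON1-OE points overlap for 8 genes and are separate for *SRSF2* and *SRSF4*, both lower in PON1-OE.

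The classical pair *SRSF1* and *SRSF9* gave the most reads. SRSF1 governs the choice of 5′ splice sites and also acts in mRNA export and translation. *SRSF1* (chr17:58003360-58007346, minus strand, coordinates of GENCODE v29 on GRCh38 here and below) had 336.0, 319.6 and 338.4 CPM in NC and 336.0, 333.3 and 322.8 in PON1-OE. The groups overlapped almost completely, and the log2FC was −0.0027 ± 0.037 (SE) with a 95% interval of −0.079 to 0.074. SRSF9 is its closest relative with a much shorter arginine-serine tail. *SRSF9* (chr12:120461668-120469793, minus strand) had 179.6, 175.2 and 171.6 CPM in NC and 165.9, 187.7 and 162.3 in PON1-OE. PON1-OE replicate 2 was the highest of the 6 libraries and the other two of its group the lowest, so the groups overlapped with a log2FC of −0.029 ± 0.049 (SE). Without PON1-OE replicate 2, the log2FC of *SRSF9* was −0.095 at an unadjusted p of 0.0293 and an adjusted p of 0.320.

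*SRSF4*, *SRSF5* and *SRSF6* encode closely related proteins with a pair of RNA recognition motifs and a long arginine-serine tail, which act on enhancer-dependent exons. *SRSF4* (chr1:29147743-29181987, minus strand) had 46.6, 45.3 and 49.96 CPM in NC and 43.7, 43.3 and 40.4 in PON1-OE. Every PON1-OE library lay below every NC library, with a change in the mean of −10.2%. The log2FC of *SRSF4* was −0.16 ± 0.064 (SE), its 95% interval was −0.29 to −0.022, and the unadjusted p of 0.0249 became an adjusted p of 0.371. The unadjusted p was above 0.05 without NC replicate 3 (0.133), without PON1-OE replicate 3 (0.107) and in DESeq2 (0.0529). *SRSF5* and *SRSF6* did not share this pattern. *SRSF5* (chr14:69726900-69772005, plus strand), an insulin-responsive member of the trio, had 13.6, 17.3 and 15.2 CPM in NC and 17.3, 14.4 and 16.9 in PON1-OE, and its log2FC of 0.077 ± 0.11 (SE) was the least precise of the 10. *SRSF6* (chr20:43457928-43464247, plus strand) had 45.5, 49.6 and 49.4 CPM in NC and 51.0, 49.3 and 49.7 in PON1-OE, with a log2FC of 0.054 ± 0.060 (SE). For both genes the groups overlapped, and the intervals of −0.14 to 0.30 for *SRSF5* and −0.072 to 0.18 for *SRSF6* included 0.

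*SRSF3* and *SRSF7* encode small shuttling SR proteins that link splicing and polyadenylation to export through NXF1. *SRSF3* (chr6:36594353-36605600, plus strand) had 100.1, 88.0 and 102.5 CPM in NC and 101.9, 99.1 and 99.1 in PON1-OE. NC replicate 2 was the lowest of the 6 libraries and the remaining NC libraries lay within or above the PON1-OE range. The log2FC of *SRSF3* was 0.048 ± 0.054 (SE) with all libraries and −0.018 without NC replicate 2. *SRSF7* (chr2:38743599-38751494, minus strand), which carries a zinc knuckle, had 42.1, 42.6 and 38.1 CPM in NC and 45.5, 41.2 and 43.1 in PON1-OE. The groups overlapped, and the log2FC of *SRSF7* was 0.080 ± 0.067 (SE), the highest fitted value of the 10, with an interval of −0.060 to 0.22.

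*SRSF2*, whose protein is a classical marker of nuclear speckles, differed little but without overlap. *SRSF2* (chr17:76734115-76737374, minus strand) had 84.2, 84.5 and 85.7 CPM in NC and 80.0, 78.4 and 80.8 in PON1-OE. No PON1-OE library reached the NC range, and the mean changed by −5.99%. The log2FC was −0.089 ± 0.048 (SE), with a 95% interval of −0.19 to 0.011, an unadjusted p of 0.0771 and an adjusted p of 0.516. *SRSF2* and *SRSF4* were the 2 of 10 SR genes whose groups were separate and lower in PON1-OE, and 0 of 10 were separate and higher. Of all genes tested, 7.74% were separate and lower and 8.32% separate and higher. For both, an exact two-sided permutation test gave p = 0.1, the smallest value that 3 libraries against 3 allow. Any gene with separate groups gets this value, so it adds nothing to the separation itself.

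SRSF10 is an unusual member whose dephosphorylated form represses splicing in heat shock and mitosis. *SRSF10* (chr1:23964804-23980927, minus strand) had 42.8, 43.0 and 38.9 CPM in NC and 44.3, 40.8 and 45.6 in PON1-OE. The groups overlapped, with a log2FC of 0.066 ± 0.067 (SE) and an interval of −0.074 to 0.21. SRSF11 is an SR-related protein that interacts with the U2AF splicing factor. *SRSF11* (chr1:70205682-70253052, plus strand) had 82.2, 82.7 and 89.3 CPM in NC and 77.7, 72.7 and 83.0 in PON1-OE. PON1-OE replicate 3 lay between the NC libraries and the other two below them, and the mean changed by −8.20%. The log2FC of *SRSF11* was −0.12 ± 0.056 (SE), with a 95% interval of −0.24 to −0.0067, an unadjusted p of 0.0392 and an adjusted p of 0.422. The unadjusted p was above 0.05 without replicate 3 of NC (0.199) or replicates 1 (0.0791) or 2 (0.186) of PON1-OE, and in DESeq2 (0.0639).

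**Figure D2:**
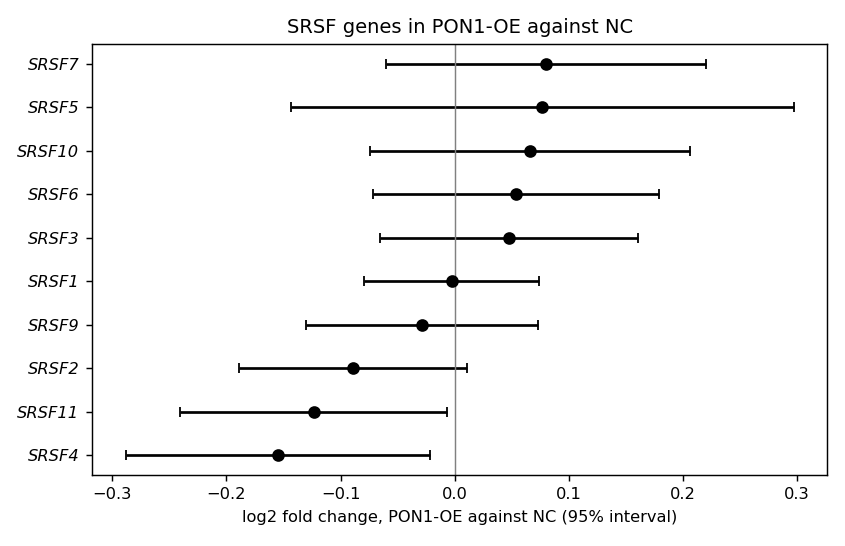
Log2FC (PON1-OE minus NC) of the 10 SR genes from edgeR, with points for the estimate and bars for the 95% confidence interval. The intervals of *SRSF4* (−0.29 to −0.022) and *SRSF11* (−0.24 to −0.0067) lie below 0 before adjustment, and those of the other 8 include 0.

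The sequences just upstream of *SRSF4* and *SRSF11* are shown because these genes had the lowest unadjusted p of the 10. They come from RefSeq promoter windows (GRCh38.p14, 250 bases before to 50 after the annotated start), of which 11 matched 9 of the 10 genes, and only bases outside annotated exons are printed. Capitals mark a match to a searched motif, read on the opposite strand in both cases. These were CCGGAAG (ETS motif) upstream of *SRSF4* and TATAAA (the letters of the TATA box) upstream of the downstream start of *SRSF11*. Both matches lie in the part of the stretch farther from the annotated start (chr1:29181900 for *SRSF4*, chr1:70221380 for *SRSF11*). They are matches of letters only, and their function was not tested. The upstream start of *SRSF11* held no match in the stretch shown.
SRSF4, chr1:29181988-29182150, minus strand: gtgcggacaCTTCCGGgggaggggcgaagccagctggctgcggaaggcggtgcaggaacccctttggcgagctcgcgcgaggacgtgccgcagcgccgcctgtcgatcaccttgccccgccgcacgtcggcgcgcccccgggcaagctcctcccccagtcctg
SRSF11, chr1:70221130-70221369, plus strand: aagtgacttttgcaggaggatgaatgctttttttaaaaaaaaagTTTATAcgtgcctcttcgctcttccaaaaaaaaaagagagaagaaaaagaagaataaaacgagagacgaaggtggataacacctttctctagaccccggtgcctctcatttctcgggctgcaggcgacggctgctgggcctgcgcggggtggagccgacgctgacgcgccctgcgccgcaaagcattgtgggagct
SRSF11, chr1:70205621-70205681, plus strand: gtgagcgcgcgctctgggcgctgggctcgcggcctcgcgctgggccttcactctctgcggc
Over whole windows and on both strands, CCGGAAG was found for *SRSF4* and *SRSF5*, in 2 of 11 windows of SR genes and 10.3% of all 35116 windows. TATAAA was found for *SRSF3*, *SRSF7* and *SRSF11*, in 3 of 11 windows and 11.5% of all. GGGCGG (GC box) lay in 5 of 11 windows, of *SRSF4*, *SRSF6*, *SRSF7* and *SRSF11*, against 45.0% of all, and CCAAT in 1 of 11, of *SRSF3*, against 34.6%. The NRF1 motif, TGACGTCA (CRE) and CACGTG (E-box) were found in 0 of 11 windows and in 1.24%, 1.85% and 7.26% of all. The motifs searched do not contain one another. The windows of SR genes had a median GC content of 62.7%, ranging from 53.7% to 74.7%, against 58.7% over all windows. The stretch upstream of *SRSF4* was GC-rich (74.2%) and that upstream of the downstream *SRSF11* start less so (50.4%), and the bases shown for the 2 genes held no searched motif in common.

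The SR genes covered a wide range of levels, and their group means per kilobase of exon stood in the same order in both groups. Expressed as CPM per kilobase of annotated exon in NC, *SRSF1* was highest at 99.2 ± 3.07 (SD, n = 3), followed by *SRSF9* at 46.9 ± 1.07 and *SRSF2* at 28.1 ± 0.25. *SRSF3* (13.6 ± 1.096), *SRSF6* (10.5 ± 0.51), *SRSF7* (10.1 ± 0.61) and *SRSF11* (9.70 to 10.5 over the 3 libraries) formed a middle tier on this scale. The lowest were *SRSF4* at 5.32 ± 0.27, *SRSF10* at 4.05 ± 0.22 and *SRSF5* at 2.87 ± 0.35. Neighbors in this order did not overlap between NC libraries except for *SRSF6* with *SRSF7* and *SRSF7* with *SRSF11*. In PON1-OE, *SRSF6* and *SRSF7* still overlapped, while *SRSF11* at 9.18 ± 0.61 lay below *SRSF7* at 10.7 ± 0.54 in every library. Exons of all annotated transcripts were merged for this scale, which lowers the level of a gene that uses only some of them. *SRSF1* alone gave 34.4% and *SRSF9* 18.1% of the normalized counts of the 10 genes. Summed over the 10 genes, the level was 967 ± 16.6 CPM (SD, n = 3) for NC and 956 ± 10.5 CPM for PON1-OE, a difference of −10.9 CPM or −1.12%. In size this was smaller than the SD of NC and slightly larger than that of PON1-OE (exact two-sided permutation test p = 0.4). The difference was −20.2 CPM without NC replicate 2, larger than either SD. It was −4.57 CPM without NC replicate 3 and −4.80 CPM without PON1-OE replicate 3. The SR genes took 0.0941% to 0.0980% of all counts in each library.

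Gene counts do not separate the transcripts of an SR gene, a limit that bears on poison exons. In the annotation, all 10 had at least 1 transcript marked as an NMD target, against 43.8% of 11886 protein-coding genes tested, and 8 of 10 had one with a retained intron, against 58.1%. The SR genes had a median of 10 annotated transcripts and the protein-coding genes 8. *SRSF1*, *SRSF2* and *SRSF9* share exonic bases with another protein-coding gene of the table, and they were also the 3 SR genes whose estimated counts were not whole numbers. *SRSF2* shares 1106 bases with the opposite-strand gene *MFSD11*, *SRSF9* shares 1729 bases with the opposite-strand gene *GATC*, and *SRSF1* shares 1890 bases with a same-strand gene. Strandedness of the counting is not given in the sources used here. Whether reads of *MFSD11* and *GATC* were kept apart from those of *SRSF2* and *SRSF9* in the shared bases is therefore not known. For the same-strand neighbor of *SRSF1*, strandedness would not separate the reads in any case. *MFSD11* had a log2FC of −0.078 (unadjusted p 0.285, adjusted p 0.752). *GATC* had one of −0.11 (unadjusted p 0.0229, adjusted p 0.358). *SRSF1*, *SRSF9* and *SRSF10* each also have a named pseudogene, which adds uncertainty to how their reads were assigned.

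The 10 SR genes did not move as a unit between libraries. After subtraction of each group mean from the log2 CPM of its libraries, Pearson r over the 6 libraries had a median of −0.091 over the 45 pairs of SR genes, with 19 pairs above and 26 below 0. Over all 71490903 pairs of tested genes the median was −3e-04, and |r| above 0.9 was reached by 4.44% of the SR pairs (2 of 45) and 4.18% of all pairs. These values are a description, because 6 libraries with both means removed leave 4 degrees of freedom, and all genes share the library scaling. The closest pair was *SRSF2* with *SRSF11* (r = 0.98), followed by *SRSF1* with *SRSF3* (0.88), *SRSF1* with *SRSF4* (0.87) and *SRSF7* with *SRSF10* (0.84). The most opposed were *SRSF2* with *SRSF9* (−0.95), *SRSF9* with *SRSF11* (−0.87) and *SRSF4* with *SRSF10* (−0.80). Close relatives had r of either sign. *SRSF1* with *SRSF9* had r = 0.23, *SRSF3* with *SRSF7* −0.41, *SRSF4* with *SRSF5* −0.31, *SRSF4* with *SRSF6* 0.23 and *SRSF5* with *SRSF6* 0.79. The median over pairs turned positive when any 1 NC library was left out (0.11, 0.12 and 0.090 without NC replicates 1, 2 and 3) and stayed negative without each PON1-OE library.

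**Figure D3:**
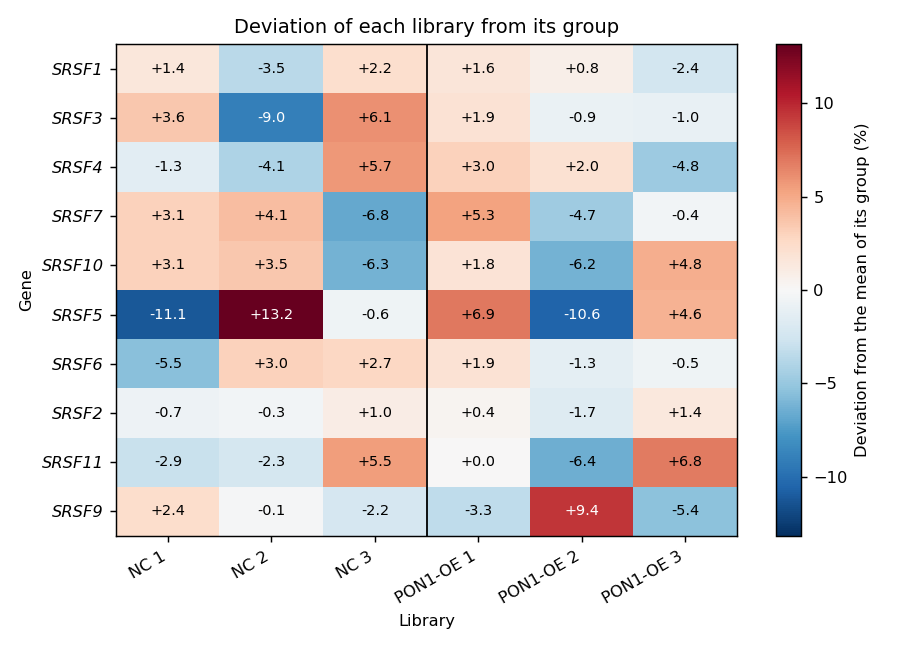
Deviation of each library (columns) from the mean log2 CPM of its group, given as percent in cells and color, for the 10 SR genes (rows). PON1-OE replicate 1 lies above its group mean for 9 of 10 genes, for *SRSF11* only just, and in every other library between 3 and 6 genes lie above.

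PON1-OE replicate 1 was above its group mean for 9 of the 10 SR genes, and NC replicate 3 was the highest of the 6 libraries for 5 of them and the lowest for 2. PON1-OE replicate 2 was below its group mean for 7. The shifts were small, with a median deviation per library between −0.022 and 0.026 on the log2 scale. The variance within groups relative to that of counting alone was above 1 for all SR genes but *SRSF2*. With 3 libraries per group this ratio is imprecise, and it was not tested for single genes. The ratio had a median of 2.69, against 1.97 over all genes tested. It ran from 0.215 for *SRSF2* to 9.49 for *SRSF9*. At a given relative spread this ratio grows with the counts, whose median was 1084 for the SR genes and 479 over all genes tested. The medians therefore do not show that SR genes varied more than other genes of like depth. The high value for *SRSF9* goes with the 187.7 CPM of PON1-OE replicate 2. The mean z-score of the 10 genes lay between −0.32 and 0.27 in all libraries. Outside the SR genes, those most like this mean profile over the 6 libraries were *FKBP14* (Pearson r = 0.99), *SPPL2B* (0.98), *POLR2J* (0.98), *TLK2* (0.98) and *ZNF691* (0.97). These 5 had the highest r of all other genes with at least 10 CPM, so high values over 6 libraries follow from the choice. The SR genes' own r with the profile is not comparable, since each is part of it. It ran only from −0.59 (*SRSF9*) to 0.55 (*SRSF11*), so likeness to the profile says little about any single SR gene.

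Among the other splicing genes, falls past the adjusted threshold were seen for 1 SR-related protein and 1 kinase. The list of 28 other SR and SR-related genes had 1 gene called lower and 0 called higher at an adjusted p under 0.05, against 0.176% lower and 0.502% higher over all genes. *PPIG*, a nuclear cyclophilin with an arginine-serine domain, had 39.0, 38.5 and 39.4 CPM in NC and 33.6, 29.5 and 31.1 in PON1-OE. It fell by 0.31 on the log2 scale (SE 0.069, edgeR adjusted p 0.0380), with no overlap between groups. Its adjusted p was 0.0447 without PON1-OE replicate 1. It was above 0.05 without NC replicates 1, 2 or 3 (0.149, 0.0594 and 0.215) and without PON1-OE replicates 2 or 3 (0.0992 and 0.173). This list of 28 genes was chosen with earlier results of these data known, so its counts are a description and no independent support. In it, 22 of 28 fitted log2FC were below 0 (78.6%, against 51% of all genes), with a median of −0.040. At an unadjusted p under 0.05, 6 were lower and 2 higher, against 5.17% and 5.91% of all genes. The pair of higher genes were *TRA2A* and *TRA2B*, whose proteins bind exonic enhancers together with SR proteins. *TRA2A* had 11.8, 13.3 and 11.9 CPM in NC and 16.3, 15.697 and 16.5 in PON1-OE, a log2FC of 0.39 ± 0.097 (SE) without overlap, at an adjusted p of 0.0820 and, without a filter on low counts, 0.0374. *TRA2B* averaged 82.1 CPM in NC and 89.3 in PON1-OE, with a log2FC of 0.12 ± 0.051 (SE) and an adjusted p of 0.380. *SRRM1*, a coactivator with an arginine-serine domain, had 50.8, 49.5 and 47.7 CPM in NC and 44.3, 43.4 and 44.9 in PON1-OE (log2FC −0.16, adjusted p 0.300). The SR genes outside the 10, *SRSF8* and *SRSF12*, overlapped between groups with log2FC of −0.012 ± 0.095 (SE) and 0.21 ± 0.35 (SE). *SRSF12* had only 13 to 30 counts per library.

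**Figure D4:**
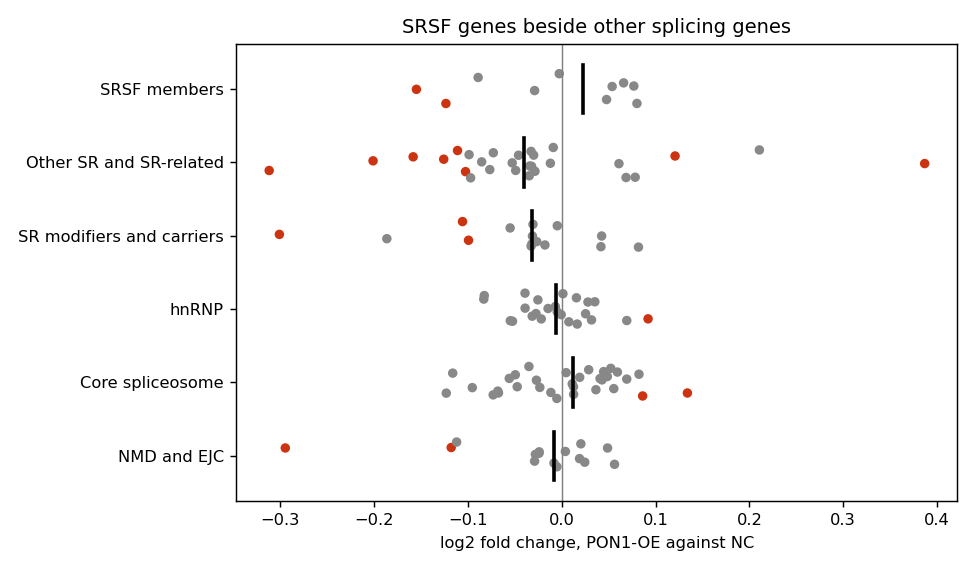
Log2FC (PON1-OE minus NC) of every tested gene in the 5 lists of other splicing genes and in the 10 SR genes, with 1 point per gene, red where the unadjusted p is under 0.05, and a line at the list median. Medians lie between −0.040 (other SR and SR-related genes) and 0.023 (the 10 SR genes).

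Of 16 genes that modify or carry SR proteins, 15 were tested. Of these, 12 had a log2FC below 0 (80.0%), 3 were lower and 0 higher at an unadjusted p under 0.05, and 1 was called lower. The shares over all genes were 51% below 0, 5.17% lower and 5.91% higher at unadjusted p, and 0.176% called lower. This list, too, was chosen with earlier results of these data known, so its counts are a description only. *PRP4K*, a kinase that acts on spliceosomal proteins including PRPF6, had 48.0, 49.6 and 48.2 CPM in NC and 43.3, 36.5 and 38.5 in PON1-OE. It fell by 0.30 on the log2 scale (SE 0.068, edgeR adjusted p 0.0428), and the groups did not overlap. The adjusted p of *PRP4K* was 0.131, 0.0998 and 0.201 without NC replicates 1, 2 and 3, and 0.111 and 0.206 without PON1-OE replicates 2 and 3. *JMJD6*, which hydroxylates lysines of arginine-serine proteins, had a log2FC of −0.11 (adjusted p 0.319), and *PPP1CC*, a catalytic subunit of protein phosphatase 1, one of −0.099 (adjusted p 0.415). The main SR protein kinases were not among the called genes. *SRPK1* had a log2FC of 0.043 ± 0.047 (SE), *SRPK2* −0.031 ± 0.043 and *CLK1* −0.0048 ± 0.062, each with overlapping groups. *CLK2* (log2FC −0.033) and *CLK3* (−0.055) also overlapped, and *SRPK3* had too few reads to test. *CLK4* had 7.81, 7.52 and 8.33 CPM in NC and 7.49, 5.82 and 7.47 in PON1-OE, without overlap. Its log2FC was −0.19 ± 0.14 (SE) at an unadjusted p of 0.187. *PRP4K*, *JMJD6*, *PPP1CC* and *CLK4* were the 4 of 15 tested genes with separate groups and lower in PON1-OE, and 0 were separate and higher. Of all genes tested, 7.74% were separate and lower and 8.32% separate and higher.

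Antagonists of SR proteins and the spliceosome core showed no called gene. By unadjusted p, the counts below stand against 5.91% higher and 5.17% lower over all genes tested. Of 24 genes for hnRNP proteins, which often oppose SR proteins at exons, 10 were above and 14 below 0 with a median of −0.0058. The RNA-binding protein gene *HNRNPD* was higher at an unadjusted p of 0.0431 (log2FC 0.092, adjusted p 0.434), the only one of these 24 under 0.05. *HNRNPH2* (log2FC −0.083, unadjusted p 0.0509) and *HNRNPR* (−0.083, 0.0585) came next. Of 32 genes of snRNPs and the core spliceosome, 18 were above and 14 below 0 with a median of 0.012. At an unadjusted p under 0.05, 2 of them were higher, *PRPF6* of the tri-snRNP (log2FC 0.086, adjusted p 0.425) and *SNRPE* of the Sm ring (0.13, 0.445). *U2AF2*, which recognizes the polypyrimidine tract, had a log2FC of −0.073 at an adjusted p of 0.521. Of 15 genes of NMD and the exon junction complex, 6 were above and 9 below 0 with a median of −0.0083, and 2 were lower at an unadjusted p under 0.05. These were the paralogs *UPF3A* (log2FC −0.29, adjusted p 0.380) and *UPF3B* (−0.12, 0.374), which bridge the exon junction complex to UPF1 and UPF2. *MAGOH*, a core subunit of that complex, had a log2FC of −0.11 at an adjusted p of 0.605.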

How the data were processed

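Poly(A) RNA of 3 PON1-OE and 3 NC libraries had been sequenced. The authors deposited 1 table of unnormalized estimated counts, of which 10.5% were not whole. The submitters' processing notes list Bowtie2 2.2.8, HISAT2, StringTie 1.3.1 and DESeq2. The genome build, annotation and strandedness are not given in the sources used here. The expected counts, for which the design had assumed whole counts, were rounded and tested with edgeR 4.0.16 under R 4.3.3 (filterByExpr, TMM, glmQLFit and glmQLFTest, no covariates, Benjamini-Hochberg over 11958 genes). A called gene had an adjusted p under 0.05. The scripts were tested on simulated data. Libraries of a group differed by more than sampling noise (chi-square per degree of freedom 2.11 to 4.11). Depth was 15706672 to 17948383 counts per library, so the floor of 3 counts used for the markers equals 0.166 to 0.192 CPM. This floor is a fixed count and does not measure the spread between libraries. Exon lengths, transcripts and overlaps came from GENCODE v29, matched by identifier.

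Named were all 10 SR genes, *PON1*, every called gene of the splicing lists, the 3 genes of each list with the lowest unadjusted p, and the 5 genes most like the mean SR profile with at least 10 CPM. *TRA2B*, *SRSF8*, *SRSF12*, the SRPK and CLK genes, cell type markers and the overlapping *MFSD11* and *GATC* were named in addition. The genes and lists were chosen with earlier results of these data known. *PRP4K* was listed under its older symbol *PRPF4B*. The fit was repeated with RLE size factors, without a filter, with a minimum of 10 counts in each library, with replicate number as a blocking factor, with DESeq2 1.42.0, limma-voom (limma 3.58.1), with a fold threshold, at unadjusted p, and leaving out each library. Some single marker genes are not reported here.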

Additional observations from a re-analysis of the deposited data

How the results depend on the processing

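None of the 10 SR genes had an adjusted p under 0.05 under any alternative run. At an unadjusted p under 0.05, 2 passed in the main fit, 0 in DESeq2 and 0 without NC replicate 3. Without PON1-OE replicate 1 or 3, 1 passed, and in the other refits 2. Without PON1-OE replicate 2 these were *SRSF4* and *SRSF9*. For all genes together, the count of 81 called genes became 177 without a filter on low counts, 6 with the fold threshold and 1325 at unadjusted p. It ran from 11 to 103 with single libraries left out (34 without NC replicate 1, 11 without NC replicate 3, 44 without PON1-OE replicate 1, 18 without PON1-OE replicate 3). Of 120 refits of single SR genes, 113 kept the sign, and *SRSF2*, *SRSF4*, *SRSF6*, *SRSF7*, *SRSF10* and *SRSF11* kept it throughout. Leaving out single libraries moved these log2FC from −0.099 to −0.076, −0.19 to −0.11, 0.015 to 0.075, 0.031 to 0.12, 0.021 to 0.11 and −0.17 to −0.076, in that order. With single libraries left out, log2FC ran from −0.028 to 0.014 for *SRSF1*, −0.018 to 0.091 for *SRSF3*, −0.0033 to 0.17 for *SRSF5*, −0.095 to 0.011 for *SRSF9*, −0.078 to 0.071 for *SRSF8*, −0.072 to 0.41 for *SRSF12* and −0.036 to 0.038 for *CLK1*. The median r over SR pairs ran from −0.15 to 0.12 and the hnRNP median log2FC from −0.015 to 0.0053, above 0 without replicate 3 of NC or replicates 1 or 2 of PON1-OE. The core spliceosome median ran from −0.0023 (without PON1-OE replicate 3) to 0.025, and that of the SR modifiers from −0.047 to −0.017. The cause was not tested.

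Replicate numbers did not pair the libraries. Same-numbered libraries had correlations of deviations of 0.017, −0.023 and 0.020, and 0 of 3 NC libraries correlated best with the PON1-OE library of its own number. With the replicate block, 40 genes were called, 0 of them among the 10 SR genes, and *PPIG* and *PRP4K* both had an adjusted p of 0.0846. Depth limited *SRSF5* most, with 224 to 313 counts per library.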
